A study of Arabidopsis thaliana with 14 samples.

Results

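Whole rosettes of Arabidopsis thaliana Col-0 that had spent 8 h in an extended night were compared with rosettes taken when the night should have ended. The comparison uses 5 of the 14 arrays of the series, all those whose labels give either time: 2 arrays at 8 h, lettered A and B, and 3 lettered A, B and C from when the night ended. It covers 22746 of the 22810 probe sets of the Affymetrix array, leaving out 64 controls. Both groups were wild type and 5 to 6 weeks old, and were grown at the end under 14 h of light and 10 h of night. Each sample held 3 rosettes, frozen in darkness, so the 8 h plants had been dark for 18 h and no other treatment is labelled. The labels do not say that arrays of one time came from separate cultures, so the p-values measure only the spread between these samples.

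Leaves store starch by day and use it up by about the end of a normal night. When darkness goes on, sugar runs out, and the plant turns to protein, amino acids and lipids as fuel while growth and costly synthesis stop. The energy-sensing kinase SnRK1 is known for switching on breakdown genes in this state. At 8 h the plants were also in their subjective day, so the hours of darkness and the clock time cannot be told apart in this comparison.

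Values are log2 signals after the authors' normalization, and 1 unit is a doubling. Array medians were 6.64 to 6.67 at 8 h and 6.71 to 6.74 at the end of the night. Replicate arrays correlated across probe sets at 0.988 at 8 h and at 0.988 to 0.992 at the end of the night. The 25S rRNA control read 13.22 to 13.37 at 8 h and 11.99 to 13.2 at the end of the night, and its part in the results was not tested. The leaf enzyme RCA, the activase of Rubisco, read 13.43 and 12.93 at 8 h and 13.76, 13.79 and 14.04 at the end of the night, with no call (adjusted p = 0.376). With only these 2 time points in the limma fit RCA was called lower (-0.677, adjusted p = 0.0342). Of the listed flower, seed and root markers only PYK10, a beta-glucosidase of roots and seedlings, was measured. It read 9.47 and 7.65 at 8 h and 9.25, 8.70 and 8.79 at the end of the night (adjusted p = 0.663), and was called lower when 8 h array A was omitted (-1.26, adjusted p = 0.0253). In whole rosettes, fewer cells of a type and less RNA per cell cannot be told apart.

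At 8 h, 6310 probe sets differed from the end of the night (27.7% of those tested, limma, adjusted p under 0.05). Of these, 2893 were higher (12.7%) and 3417 lower (15%). Each list count below is to be read beside those shares. At least 4-fold changes numbered 295 up (1.3%) and 298 down (1.31%), and at least 16-fold changes 34 up (0.149%) and 8 down (0.0352%). Both 8 h arrays lay above all end of night arrays for 5724 probe sets (25.2%) and below them for 5715 (25.1%). The difference between the group means had a standard deviation of 0.723 across probe sets, against 0.324 for the gap between the 8 h arrays and 0.261 to 0.325 for gaps between end of night arrays. Calls rose with signal, from 4.7% of the dimmest 7582 probe sets through 30.6% to 47.9% of the brightest 7582. The median called rise was 0.895 log2 units and the median called fall 0.908.

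**Figure D1:**
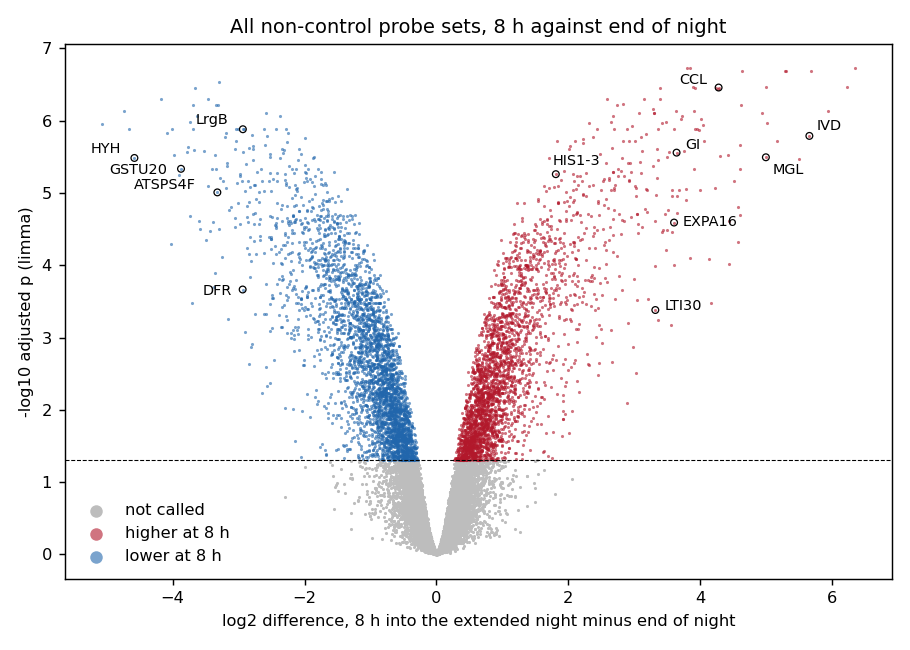
Each point is a probe set, with the log2 difference (8 h minus end of night) across and -log10 of the limma adjusted p upward; the dashed line is an adjusted p of 0.05. Called probe sets number 2893 on the right and 3417 on the left, and the circled genes are named in the text.

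The largest rises among probe sets with 1 gene included enzymes that feed carbon skeletons into respiration. IVD, isovaleryl-CoA dehydrogenase of leucine breakdown, read 12.56 and 12.32 at 8 h, against 6.94, 7.10 and 6.32 at the end of the night. The groups were far apart (5.65 ± 0.28, adjusted p = 1.62e-06). Higher still in the difference was AT3G62550, with 12.86 and 13.24 at 8 h and 7.08, 7.12 and 7.14 at the end of the night (5.93 ± 0.24). ALDH7B4, an aldehyde dehydrogenase, read 12.72 and 12.67 at 8 h and 8.71, 8.32 and 8.24 at the end of the night (4.27 ± 0.15). CCL read 13.66 and 13.78 at 8 h and 9.72, 9.35 and 9.26 at the end of the night (4.28 ± 0.15). Groups that do not overlap were a condition for being named among the largest differences. PAP85, a vicilin-like storage protein, read 8.55 and 9.60 at 8 h and 4.84, 4.96 and 5.04 at the end of the night (4.13 ± 0.41).

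Among probe sets with 1 gene, the largest falls were those of AT3G15310 (4.22 and 4.14 at 8 h, against 8.79, 8.40 and 9.31 at the end of the night) and HYH, a bZIP factor of light signalling related to HY5. HYH read 4.35 and 4.66 at 8 h and 8.96, 9.04 and 9.24 at the end of the night (-4.58 ± 0.26, adjusted p = 3.27e-06). ATSPS4F, a sucrose phosphate synthase, read 6.38 and 6.01 at 8 h and 9.24, 9.77 and 9.55 at the end of the night (-3.32 ± 0.23). AT1G26790, of the clock list, read 4.28 and 4.2 at 8 h and 7.45, 7.51 and 7.67 at the end of the night (-3.30 ± 0.11). The 3 not called and 3 called probe sets nearest the threshold all had an adjusted p of about 0.05, with differences from -0.59 (AT2G23680) to 1.53 (PDF1.2b).

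**Figure D2:**
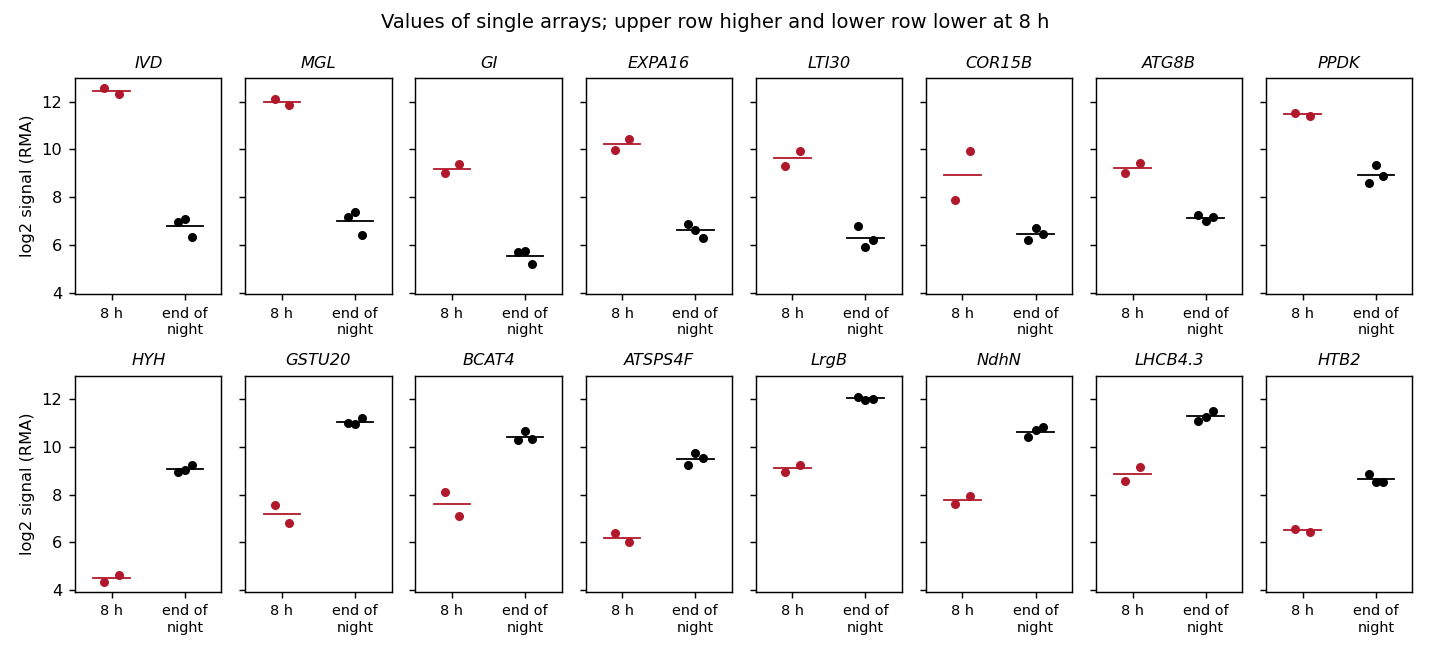
Single array values (points, log2 signal) and group means (bars) of 16 genes, at 8 h on the left and at the end of the night on the right of each panel. In every panel the 2 arrays at 8 h lie on one side of the 3 at the end of the night; COR15B at 8 h shows the widest gap, 7.88 and 9.94.

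Amino acid breakdown genes rose. Of 13 measured genes 11 rose and the other 2 were not called, with a median of 2.907 log2 units against 0.014 over all probe sets. MGL, methionine gamma-lyase, read 12.09 and 11.86 at 8 h and 7.18, 7.37 and 6.40 at the end of the night (4.99 ± 0.28). MCCA, a subunit of methylcrotonyl-CoA carboxylase, read 13.24 and 12.83 at 8 h and 8.36, 8.61 and 8.28 at the end of the night (4.62 ± 0.18). Among listed members chosen after their values were seen, its partner MCCB rose by 2.91 ± 0.17 and ALDH6B2, of valine breakdown, by 2.96 ± 0.14. The electron route from these oxidations into the respiratory chain rose too: ETFQO by 3.48 ± 0.33, ETFBETA by 1.51 ± 0.12 and ETFALPHA by 0.94 ± 0.22. With 8 h array B omitted ETFALPHA was no longer called (0.84, adjusted p = 0.0742).

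Other fuel and energy genes were measured in smaller numbers. For SnRK1, trehalose phosphate and dark-induced signalling 6 of 41 listed genes were measured. Of these, 3 rose: ATL8, a RING protein, at 11.46 and 11.07 at 8 h against 7.51, 7.06 and 7.50 at the end of the night (3.91 ± 0.23), AKINBETA1, an SnRK1 beta subunit (1.95 ± 0.20), and BZIP53 (0.44 ± 0.14). The BZIP53 call was lost under 7 of 12 alternatives, among them leaving out 8 h array B or any 1 of the end of night arrays. SDP1, a triacylglycerol lipase, read 9.91 and 9.24 at 8 h and 7.71, 7.43 and 7.38 at the end of the night (2.07 ± 0.22). AIM1, of peroxisomal beta-oxidation, rose by 1.01 ± 0.12, whereas isocitrate lyase ICL, of the glyoxylate cycle, stood at 0.26 ± 0.17 (adjusted p = 0.341).

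In the TCA cycle and alternative respiration list 2 of 10 rose and 2 fell (median -0.089). PPDK, pyruvate orthophosphate dikinase, read 11.52 and 11.41 at 8 h and 8.6, 9.33 and 8.86 at the end of the night (2.53 ± 0.21). CYTC-2, a cytochrome c, went the other way, at 7.21 and 7.2 against 9.43, 9.23 and 9.78 (-2.27 ± 0.28), as did NDC1, a type II NAD(P)H dehydrogenase (-0.90 ± 0.13). SDH2-2, a succinate dehydrogenase subunit, rose by 0.54 ± 0.14, no longer called when 8 h array A (adjusted p = 0.0747), 8 h array B (0.0821) or array B of the end of the night (0.0501) was omitted. With the replicate block 4 of the 10 genes were called down. Outside that list, FDH, formate dehydrogenase (2.13 ± 0.27), ACLA-3, an ATP-citrate lyase subunit (2.22 ± 0.15), PDC2, a pyruvate decarboxylase (1.73 ± 0.19), and DELTA-OAT, ornithine aminotransferase (1.87 ± 0.17), rose. These genes were chosen after their values were seen, so their common direction is no result.

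Autophagy delivers cytoplasm to the vacuole for breakdown. Of 16 measured autophagy genes 9 rose, against 12.7% of all probe sets, and the other 7 were not called (median 0.765). Of the 9 that rose, 7 encode ATG8 proteins, which coat the growing autophagosome. ATG8B read 9.02 and 9.42 at 8 h and 7.25, 7.00 and 7.16 at the end of the night (2.09 ± 0.15). APG8A rose by 1.72 ± 0.15, ATG8H by 1.48 ± 0.21 and ATG8E by 1.25 ± 0.13. Among VPS and SEC trafficking proteins, a family assembled by name after values had been seen, 6 of 25 rose and 2 fell (median 0.124). The shares over all probe sets were 12.7% up and 15% down. VPS20.1, VPS2.1 and VPS46.2, parts of the ESCRT machinery that sorts membrane proteins to the vacuole, rose by 1.42 ± 0.20, 0.87 ± 0.13 and 0.87 ± 0.16, while VPS2.2 fell (-1.09 ± 0.19). Chosen after their values were seen, the ESCRT protein ELC (1.72 ± 0.13) and GAMMA-VPE, a vacuolar protease (0.97 ± 0.16), rose.

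Ubiquitin-conjugating, U-box and LUL enzymes, which mark proteins for turnover, showed 7 rises and 2 falls among 25 (median 0.103). Over all probe sets 12.7% rose and 15% fell. The family was assembled by name after values had been seen, and it held fewer falls when 8 h array B was omitted. LUL2 read 7.96 and 7.95 at 8 h and 6.43, 6.69 and 6.73 at the end of the night (1.34 ± 0.14), and LUL1 rose by 1.24 ± 0.18. LUL4 read 5.60 and 5.62 at 8 h and 7.06, 6.88 and 6.82 at the end of the night (-1.31 ± 0.17), so members of one small family moved in opposite directions. UBC32, an enzyme of protein quality control at the endoplasmic reticulum, rose by 1.06 ± 0.18. Chosen after its values were seen, DER2.1, a derlin of the same process, rose by 1.26 ± 0.12.

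**Figure D3:**
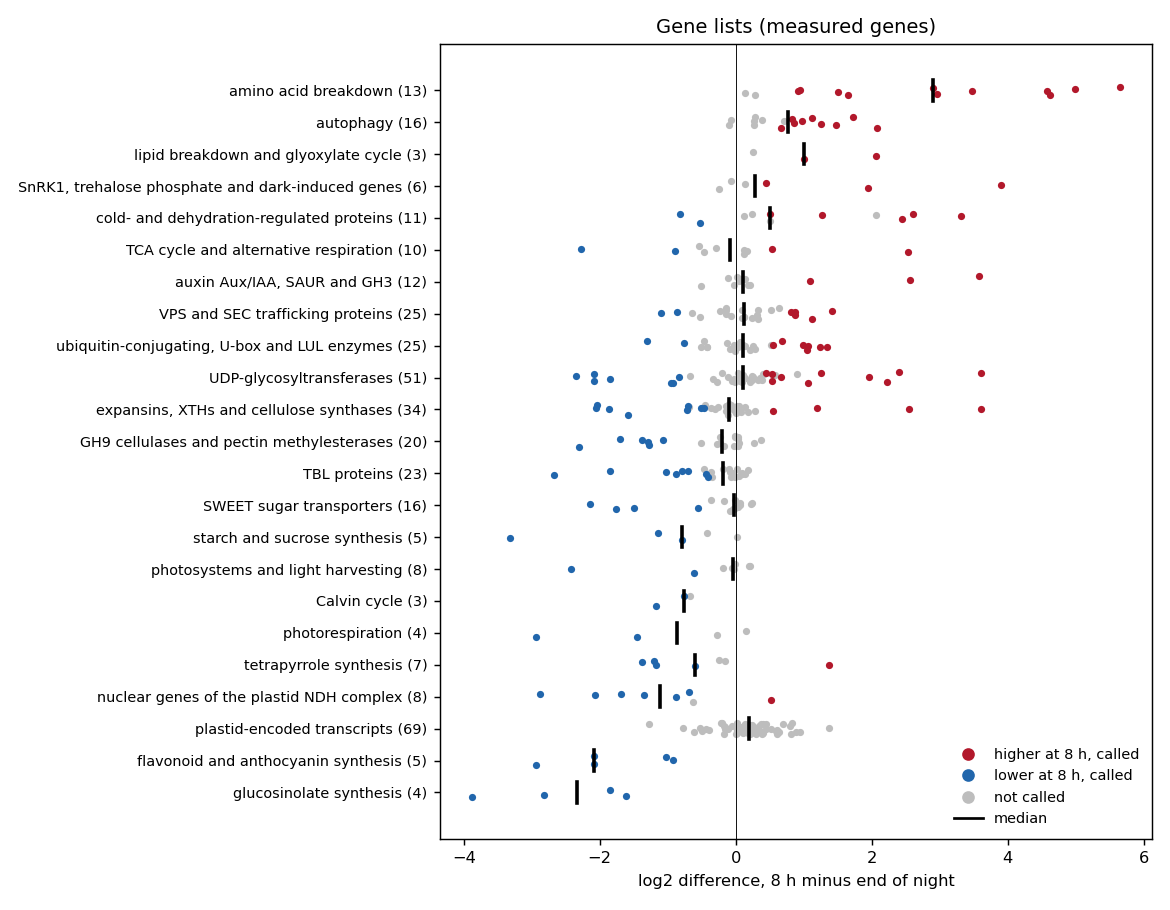
Log2 difference (8 h minus end of night, across) of each measured member of 23 gene lists; colours mark called rises, called falls and members not called, the black bar is the list median, and the number measured stands in brackets. Amino acid breakdown and autophagy hold rises and no falls, glucosinolate and flavonoid synthesis hold falls only, and the 69 plastid-encoded transcripts hold no call.

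Of 8 measured photosystem and light-harvesting genes, from 49 listed, 2 fell, where 15% of all probe sets did, and the others were not called (median -0.045). LHCB4.3, a minor antenna protein, read 8.58 and 9.15 at 8 h and 11.11, 11.25 and 11.50 at the end of the night (-2.42 ± 0.19). Its relatives LHCB4.1 (-0.01) and LHCB4.2 (0.22) were not called. The other fall was ATPC1, a subunit of the chloroplast ATP synthase (-0.61 ± 0.10). In the Calvin cycle SBPASE fell (-1.17 ± 0.13), and PRK fell by 0.76 ± 0.17, no longer called when 8 h array B was omitted (-0.66, adjusted p = 0.0673).

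Nuclear genes of the plastid NDH complex, which carries cyclic electron flow, fell in 6 of 8 cases, with 1 rise (median -1.115). NdhN, a subunit, read 7.59 and 7.93 at 8 h and 10.41, 10.70 and 10.83 at the end of the night (-2.88 ± 0.17). CRR42 (-2.07 ± 0.17), CRR21 (-1.68 ± 0.22) and NdhL (-1.35 ± 0.15) fell as well. The family was assembled by name after values had been seen. Transcripts encoded by the plastid genome itself held 0 calls among 69 in limma, with 2 up and 2 down at an unadjusted p under 0.05 and differences from -1.274 to 1.368. With the replicate block 1 was called up and 2 down, and with 8 h array B omitted 3 up and 1 down. Of 16 mitochondrion-encoded transcripts, nad4L was called up (0.47 ± 0.15), a call lost under 6 of 12 alternatives, including leaving out 8 h array A or B.

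Photorespiration recycles the product of the oxygenase side of Rubisco. Of 4 measured genes 2 fell. LrgB, also known as PLGG1, the plastid glycolate and glycerate transporter, read 8.95 and 9.25 at 8 h and 12.11, 11.99 and 12.01 at the end of the night (-2.94 ± 0.14, adjusted p = 1.31e-06). AT1G11860 fell by 1.45 ± 0.14. HPR, the peroxisomal hydroxypyruvate reductase, stood at 13.47 and 13.41 against 13.36, 13.35 and 13.15, with no call (adjusted p = 0.466).

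Tetrapyrrole synthesis makes chlorophyll and haem, and 4 of its 7 measured genes fell while 1 rose (2 falls when 8 h array A or array A of the end of the night was omitted). GSA1 (-1.20 ± 0.16) and CHLI2, a magnesium chelatase subunit (-1.17 ± 0.10), fell. PORB, the protochlorophyllide oxidoreductase that needs light to act, read 12.02 and 11.87 at 8 h and 10.90, 10.21 and 10.62 at the end of the night (1.37 ± 0.20). The falls of HEME2 (-1.38 ± 0.37) and HEMB1 (-0.60 ± 0.19) depended on single arrays: HEME2 was no longer called when 8 h array A (adjusted p = 0.0613), 8 h array B (0.131), or end of night array A (0.0567) or array C (0.0669) was omitted, and HEMB1 under 6 of 12 alternatives. In the chlorophyll breakdown and senescence list 3 of 6 rose, namely WRKY22 (1.85 ± 0.15), WRKY53 (1.4 ± 0.28) and SAG101 (0.62 ± 0.20), the last not called when 8 h array A (0.3, adjusted p = 0.382) or any 1 of the end of night arrays was omitted.

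The genes that follow were chosen after their values were seen, so their common direction is no result. CaS, a thylakoid calcium sensor, read 10.20 and 10.67 at 8 h and 12.56, 12.86 and 12.64 at the end of the night (-2.25 ± 0.18). NTRC, the plastid thioredoxin reductase, fell (-1.53 ± 0.21), as did the thioredoxins ty2 (-2.05 ± 0.25) and THX (-1.11 ± 0.19), the stromal ascorbate peroxidase SAPX (-1.36 ± 0.24) and the methionine sulfoxide reductases MSRB5 (-2.44 ± 0.20) and MSRB6 (-2.0 ± 0.35), whose genes lie side by side on chromosome 4. The plastid division protein FTSZ2-2 fell by 1.91 ± 0.18 and the iron-sulfur assembly factor HCF101 by 1.64 ± 0.14. The chaperonin subunit Cpn60beta4 fell by 2.27 ± 0.26. Cpn60beta2 fell by 1.83 ± 0.38, and was no longer called when 8 h array A was omitted (-1.34, adjusted p = 0.0598).

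Of 24 listed starch and sucrose synthesis genes 5 were measured, and 3 of these fell. Besides ATSPS4F, the ADP-glucose pyrophosphorylase subunit APL3 read 4.80 and 4.70 at 8 h and 6.12, 5.97 and 5.61 at the end of the night (-1.15 ± 0.17). The starch branching enzyme SBE2.2 fell by 0.79 ± 0.23, not called when 8 h array A (adjusted p = 0.121) or B (0.106), or array A (0.0748) or B (0.083) of the end of the night, was omitted. Among 3 starch breakdown genes, PWD, which phosphorylates starch, fell (8.62 and 8.69 at 8 h against 9.44, 9.25 and 9.32, -0.68 ± 0.10). DPE1, which rearranges maltotriose in the plastid, rose by 1.13 ± 0.29, not called when 8 h array B was omitted (0.96, adjusted p = 0.118).

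Sugar transporter genes of the SWEET family, assembled by name after values had been seen, fell in 4 of 16 cases, with the rest not called. Fewer fell when either 8 h array was omitted. The family median was -0.033, and 15% of all probe sets fell. SWEET11, which moves sucrose out of phloem parenchyma, read 10.96 and 10.52 at 8 h and 12.43, 12.13 and 12.12 at the end of the night (-1.49 ± 0.17). SWEET17, a vacuolar fructose carrier, fell by 1.76 ± 0.30. SWEET2 fell by 2.14 ± 0.61, but was not called when 8 h array A (adjusted p = 0.0544) or B (0.181), or array A (0.057) or C (0.0819) of the end of the night, was omitted. SWEET1 (-0.56 ± 0.15) lost its call under 5 of 12 alternatives, including leaving out 8 h array A or B.

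Of 28 listed synthesis genes for glucosinolates, defence compounds of the cabbage family, only 4 were measured. All 4 fell (median -2.337), against 15% of all probe sets. BCAT4, which starts the chain elongation of methionine, read 8.10 and 7.11 at 8 h and 10.29, 10.67 and 10.32 at the end of the night (-2.83 ± 0.31). GSTU20, a glutathione S-transferase counted in both lists it belongs to, read 7.58 and 6.80 at 8 h and 11.01, 10.98 and 11.21 at the end of the night (-3.87 ± 0.23). UGT74B1, which glucosylates the core structure, fell by 1.85 ± 0.13. GTR1, a glucosinolate transporter, read 6.15 and 5.93 at 8 h and 8.88, 8.71 and 8.38 at the end of the night (-2.62 ± 0.18). MYC4, a bHLH factor of jasmonate signalling chosen after its values were seen, read 6.24 and 5.99 at 8 h and 8.92, 8.02 and 8.46 at the end of the night (-2.36 ± 0.22).

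All 5 measured flavonoid and anthocyanin genes, of 23 listed, fell (median -2.078). DFR, dihydroflavonol reductase, read 5.58 and 5.49 at 8 h and 8.81, 8.20 and 8.41 at the end of the night (-2.94 ± 0.34). The flavonol glycosyltransferases UGT78D2 (-2.09 ± 0.20) and UGT78D1 (-2.08 ± 0.20) fell, and so did UF3GT (-0.92 ± 0.15). AT4G14090 fell by 1.03 ± 0.22, not called when 8 h array A was omitted (-0.81, adjusted p = 0.0719). CHIL, a chalcone isomerase-like protein chosen after its values were seen, fell by 2.27 ± 0.34.

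UDP-glycosyltransferases held 10 rises and 7 falls among 51 (median 0.104), beside 12.7% up and 15% down over all probe sets, with 6 rises when array C of the end of the night was omitted. UGT73B1 read 9.78 and 9.54 at 8 h and 6.29, 5.81 and 6.07 at the end of the night (3.60 ± 0.17), whereas GT72B1 read 7.24 and 6.43 at 8 h and 9.41, 9.02 and 9.13 at the end of the night (-2.35 ± 0.26). Glutathione S-transferases fell in 5 of 14 cases, with 1 rise (median -0.139), beside the same shares over all probe sets. The rise was GSTU16 (0.90 ± 0.24). It was not called when 8 h array B (0.63) or array A (adjusted p = 0.0713) or C (0.0579) of the end of the night was omitted. Cytochromes P450 held 4 rises (fewer when 8 h array B was omitted) and 2 falls among 22 (median 0.089), beside those same shares. Of these, 2 rises and 2 falls came from the CYP71B group on chromosome 3, where CYP71B23 (2.3 ± 0.41) rose and its direct neighbour CYP71B22 (-1.25 ± 0.16) fell. CYP71B26 (1.3 ± 0.10) rose and CYP71B36 (-0.96 ± 0.13), with 2 genes between them, fell. Relatives this alike can cross-hybridise, which was not tested. Beta-glucosidases, a family assembled by name after values had been seen, held 3 rises and 3 falls among 22 (median 0.068). Both counts were close to the 12.7% up and 15% down over all probe sets. No rise was called when 8 h array A was omitted, and falls were fewer when 8 h array B was omitted. BGLU40 fell most, at 6.24 and 6.06 against 9.01, 9.22 and 9.25 (-3.01 ± 0.14).

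Expansins, XTHs and cellulose synthase-like genes, which loosen or build the cell wall, held 4 rises (2 when 8 h array B was omitted) and 8 falls among 34 (median -0.106), where 12.7% of all probe sets rose and 15% fell. EXPA16, an expansin, read 9.97 and 10.44 at 8 h and 6.88, 6.64 and 6.30 at the end of the night (3.60 ± 0.29). EXLA1, expansin-like, rose by 2.55 ± 0.23. EXPB3 fell instead (6.66 and 6.10 at 8 h against 8.61, 8.17 and 8.46, -2.04 ± 0.22), as did XTH16 (-2.05 ± 0.25), a xyloglucan-modifying enzyme.

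Further wall families were assembled by name after values had been seen, so their common direction is no result. They held falls and no called rise, although 1 GH9 or pectin methylesterase gene was called up with median centring and 1 RALF-like gene without both 48 h arrays. At an unadjusted limma p under 0.05, 1 GH9 or pectin methylesterase gene and 2 RALF-like genes were up. Medians were -0.2 for GH9 and pectin methylesterase genes, -0.188 for TBL proteins and 0.009 for RALF-like peptides. Over all probe sets 15% fell. Among GH9 cellulases and pectin methylesterases 6 of 20 fell, led by GH9B8 at 5.15 and 5.38 at 8 h and 7.59, 7.68 and 7.44 at the end of the night (-2.31 ± 0.12). TBL proteins, which acetylate wall polymers, fell in 8 of 23 cases, with TBL45 at 7.94 and 8.04 at 8 h and 10.57, 10.55 and 10.89 at the end of the night (-2.68 ± 0.21). RALF-like peptides, small signals sensed at the cell surface, fell in 4 of 11 cases: RALFL24 (-1.72 ± 0.18), RALFL33 (-1.55 ± 0.20), RALFL34 (-1.25 ± 0.14) and RALFL22 (-0.87 ± 0.18). RALFL22 was not called when 8 h array A was omitted (-0.67, adjusted p = 0.0558).

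The DNA replication and cell cycle list had 1 measured gene of 8 listed, PRL, a subunit of the replication licensing complex. PRL read 6.04 and 6.42 at 8 h and 7.77, 7.92 and 7.23 at the end of the night (-1.41 ± 0.20). The histone H2B genes HTB2 (-2.14 ± 0.17) and HTB1 (-1.73 ± 0.13) fell. HIS1-3, a linker histone induced by drought, read 7.58 and 7.62 at 8 h and 5.66, 5.84 and 5.87 at the end of the night (1.81 ± 0.11), and HON4 rose by 1.63 ± 0.17. That made 2 rises and 2 falls among 7 histone genes, a family assembled by name after values had been seen. Over all probe sets 12.7% rose and 15% fell. Chosen after their values were seen, the mitotic kinase AUR2 (-1.28 ± 0.15) and the DNA polymerase alpha subunit POLA3 (-1.4 ± 0.16) fell.

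Hormone genes were few but included large rises. Of 12 auxin-responsive genes 3 rose (median 0.104), where 12.7% of all probe sets did. WES1, a GH3 enzyme that conjugates auxin to amino acids, read 10.78 and 10.30 at 8 h and 7.29, 7.10 and 6.51 at the end of the night (3.58 ± 0.25). IAA29, an Aux/IAA repressor, rose by 2.56 ± 0.28 and GH3.3 by 1.09 ± 0.19. EIN3, the central factor of ethylene signalling, read 11.21 and 10.80 at 8 h and 9.60, 9.60 and 9.31 at the end of the night (1.5 ± 0.14). The gibberellin receptors GID1A (1.47 ± 0.21) and GID1C (1.29 ± 0.19), chosen after their values were seen, also rose.

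Of 4 measured clock genes 1 rose and 1 fell. With array A of the end of the night omitted, AT5G52660 (0.39, adjusted p = 0.0286) and AT1G69570 (-1.10, adjusted p = 0.0346) were called too, giving 2 up and 2 down, and AT1G69570 was also called without both 48 h arrays (-0.83, adjusted p = 0.0258). Of 2 light-signalling genes 1 rose and 1 fell. GI, which is expressed late in the day and helps to time flowering, read 9.01 and 9.37 at 8 h and 5.72, 5.74 and 5.19 at the end of the night (3.64 ± 0.20). FHL, which brings phytochrome A into the nucleus, rose by 1.15 ± 0.18. AFR, an F-box protein of phytochrome A signalling chosen after its values were seen, read 7.47 and 7.59 at 8 h and 9.64, 10.27 and 9.65 at the end of the night (-2.33 ± 0.21).

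Regulators and transporters of other families mostly stayed without a call. HYH is counted with light signalling and not among the bZIP genes by name. Of 22 bZIP genes 3 rose (median 0.09), close to the 12.7% over all probe sets, and 5 rose with the replicate block. The 3 included BZIP28, a sensor of stress in the endoplasmic reticulum (8.67 and 8.67 at 8 h against 7.88, 8.04 and 8.09, 0.67 ± 0.12). AT1G06070, also on that list, rose by 0.78 ± 0.20 and was not called when 8 h array A was omitted (0.56, adjusted p = 0.147). Of 7 WRKY genes the 2 rises were WRKY22 and WRKY53. AGAMOUS-like MADS genes held 3 rises and 3 falls among 42, below the share over all probe sets, with AGL87 lowest (-1.99 ± 0.19). With the replicate block 5 rose, and with array A or B of the end of the night omitted 1 fell. Of 12 nitrate, peptide, ammonium and amino acid transporters 3 fell, GTR1 among them, and 1 rose (median -0.288), beside 15% down and 12.7% up over all probe sets. The rise was AT2G26690 (0.51 ± 0.13, adjusted p = 0.0178), which was not called when 8 h array A or B or array B of the end of the night was omitted. SIR, the sulfite reductase of sulfate assimilation, fell by 0.99 ± 0.13. Limma called 0 of 2 genes of fatty acid synthesis (FaTA and FATB), also 0 at an unadjusted p under 0.05.

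Cold- and dehydration-regulated proteins, a family assembled after values had been seen, held 5 rises and 2 falls among 11, with 1 fall when 8 h array B or array C of the end of the night was omitted. LTI30, a dehydrin, read 9.31 and 9.93 at 8 h and 6.80, 5.91 and 6.20 at the end of the night (3.32 ± 0.44). COR47, another dehydrin, read 11.83 and 12.00 at 8 h and 9.32, 9.30 and 9.30 at the end of the night (2.61 ± 0.19). The 8 h arrays disagreed on the neighbouring pair COR15A and COR15B, which protect chloroplast membranes. COR15A read 7.36 and 10.48 at 8 h and 6.98, 6.79 and 6.80 at the end of the night, with no call (2.06 ± 0.80, adjusted p = 0.0902) unless 8 h array A was left out (3.62, adjusted p = 0.00383). COR15B read 7.88 and 9.94 at 8 h and 6.21, 6.69 and 6.46 at the end of the night (2.45 ± 0.46, adjusted p = 0.0033). The other probe sets with the widest gap between 8 h arrays were the plastid transcripts rps14 (5.46 and 9.08) and petN (7.40 and 9.49) and NAI2 (7.76 and 5.70), none of them called.

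**Figure D4:**
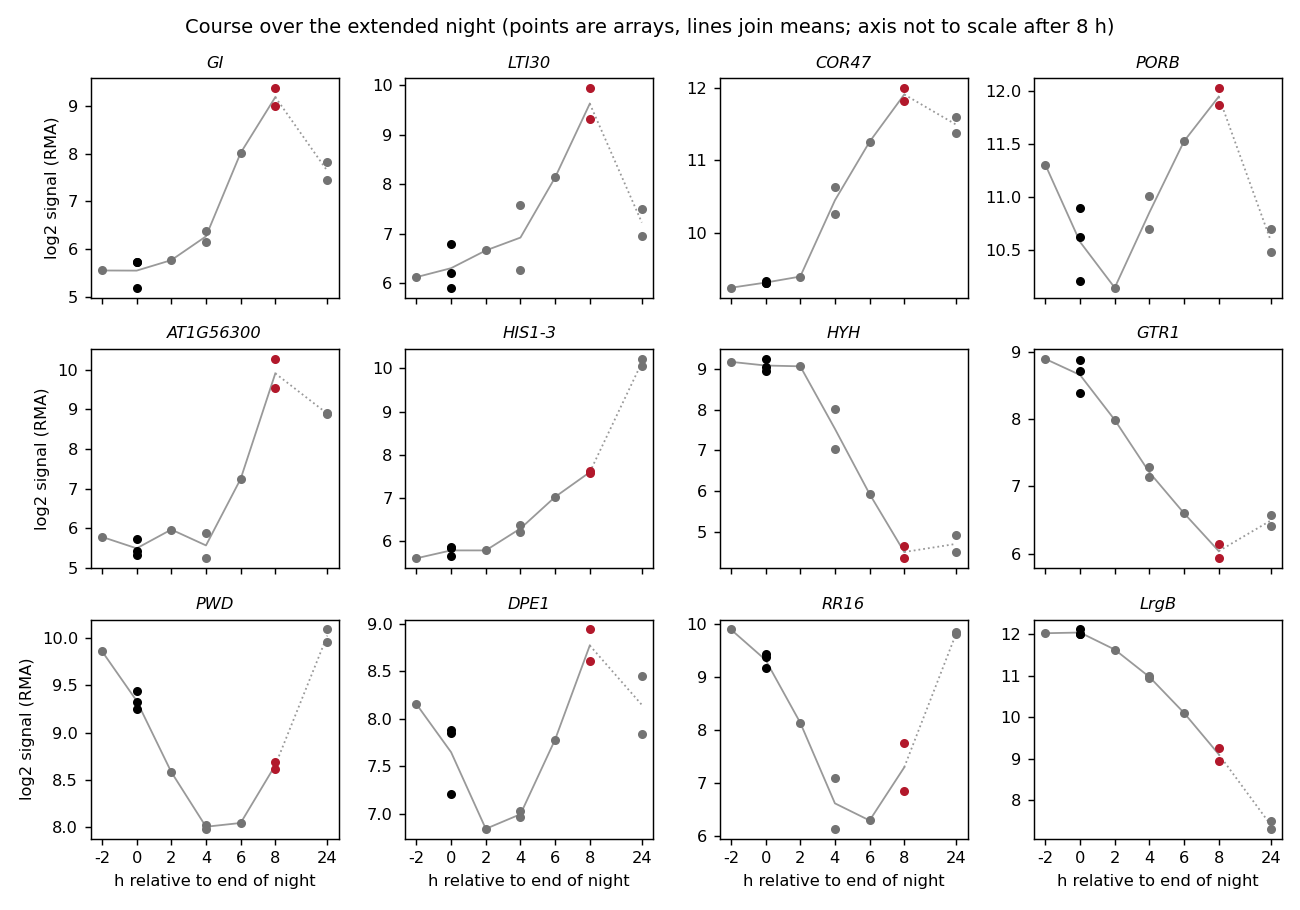
Log2 signal of 12 genes by hours relative to the end of the night, from -2 to 24 h; points are arrays (red at 8 h, black at the end of the night), lines join time point means and the spacing after 8 h is not to scale. GI and LTI30 stand highest at 8 h, PWD and RR16 are lower at 8 h than at the end of the night and higher again at 24 h, and HIS1-3 goes on to 10.22 and 10.05 at 24 h.

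Rosettes at 8 h were also compared with the 2 arrays at 4 h of the extended night, to show what changed late. In the same fit 874 probe sets differed (3.84%), 377 up (1.66%) and 497 down (2.18%), and 2459 with the replicate block. Leaving out one array gave 185 (4 h A), 305 (4 h B), 397 (8 h A) or 263 (8 h B). AT1G56300 rose most, with 9.54 and 10.28 at 8 h and 5.24 and 5.89 at 4 h (4.35 ± 0.27, adjusted p = 0.000282), and at 4 h it had not differed from the end of the night (adjusted p = 0.92). GI (2.92 ± 0.22), EXPA16 (2.50 ± 0.32) and LTI30 (2.70 ± 0.48) were higher at 8 h than at 4 h. Of the 11 cold- and dehydration-regulated genes 4 were higher than at 4 h. HYH fell further, to 4.35 and 4.66 at 8 h, against 8.01 and 7.04 at 4 h (-3.03 ± 0.28). IVD (0.88 ± 0.30, adjusted p = 0.187) and PPDK (0.14 ± 0.23, adjusted p = 0.926) were not called between 8 h and 4 h. AT5G64850 fell (-2.38 ± 0.18) while DPE1, the gene beside it on chromosome 5, rose (1.78 ± 0.32).

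After 24 h the clock time was that of the end of the night again. Against 8 h, 736 probe sets differed (3.24%), 306 up (1.35%) and 430 down (1.89%), and 1523 with the replicate block. Leaving out one array gave 230 (24 h B), 157 (24 h C), 261 (8 h A) or 243 (8 h B), and the 4 arrays of these times alone gave 273. COR27, a cold-regulated gene, read 9.73 and 9.84 at 24 h and 5.98 and 6.40 at 8 h (3.59 ± 0.26, adjusted p = 0.000305). RR16, a response regulator, read 9.84 and 9.81 at 24 h and 6.84 and 7.75 at 8 h (2.53 ± 0.40). GI read 7.83 and 7.45 at 24 h and 9.01 and 9.37 at 8 h (-1.55 ± 0.22, adjusted p = 0.00679), and LTI30 was also lower at 24 h than at 8 h (-2.40 ± 0.48). Against the end of the night, limma still called GI higher at 24 h (2.09, adjusted p = 4.3e-05) and did not call LTI30 (0.92, adjusted p = 0.147). LrgB fell on, to 7.31 and 7.49 at 24 h, against 8.95 and 9.25 at 8 h (-1.70 ± 0.15). IVD (-0.59 ± 0.30, adjusted p = 0.419) and HYH (0.20 ± 0.28, adjusted p = 0.819) were not called between 24 h and 8 h. Of 7 tetrapyrrole genes 5 were lower at 24 h than at 8 h, PORB among them (-1.36 ± 0.22).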

How the data were processed

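The deposited values are log2 intensities per probe set that the authors made with RMA, per the submitters' processing notes; its version is not given in the sources used here. All 14 arrays (8 time points) entered one limma 3.58.1 fit in R 4.3.3 (lmFit, eBayes, two-sided), with Benjamini-Hochberg adjustment over 22746 probe sets and no filter. Calls were made below an adjusted p of 0.05, and errors after ± are limma standard errors. The number of arrays limits the precision, with 6 residual degrees of freedom. On simulated data at this size, with independent errors and 200 of 22746 probe sets changed, 87% of 2-fold changes were recovered and 15 calls were false. These rates need not hold for the real arrays, where 27.7% of probe sets were called and the errors of arrays may be related.

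The array annotation paired 13513 probe sets with 1 gene, 503 with several and 8730 with none; symbols came from TAIR10.1. A gene with several probe sets took the brightest. The members and lists were chosen with earlier results of these data known, and 11 families were added by name after values were seen. The planned lists held 848 members, of which 375 were measured. Named genes were the 15 largest rises and 15 largest falls with groups not overlapping, up to 5 called members per list, the 5 largest either way against 4 h and at 24 h, the 5 widest gaps between 8 h arrays, and 3 probe sets on each side of the threshold. Any other gene was chosen after its values were seen, so a common direction among such genes is no result. A planned promoter description was not run, since no promoter sequences were used here.

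Arrays sharing a replicate letter had positively correlated deviations (r from 0.17 to 0.58 in 16 pairs). Over 32 pairs with different letters r ran from -0.58 to 0.365. Where a time has 2 arrays their deviations mirror each other, so 8 h A with 48 h C repeats the 0.365 of 8 h B with 48 h B. The overlap of the ranges comes from such repeats and cannot count against pairing. The values are not independent, as 4 h A with 8 h A and 4 h B with 8 h B gave the same 0.53. They do not establish that the letters mark paired samples. On the ground of these correlations, a fit with the letter as a replicate block was an alternative.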

Additional observations from a re-analysis of the deposited data

Results flagged for a closer look

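Among the 263 named probe sets were 3 genes with a level called on one side of the end of the night at 8 h and on the opposite side at 4 h or 24 h. The difference between those times was called in limma too. This pattern was not counted over all probe sets, and some genes were named for their change from 4 h or to 24 h. The 3 therefore do not show how common it is. PWD was below the end of the night at 4 h (-1.33, adjusted p = 4.53e-05) and at 8 h, and above it at 24 h (0.69, adjusted p = 0.00054). From 4 h to 8 h PWD had already risen by 0.65 (adjusted p = 0.0132). It was higher at 24 h than at 8 h by 1.37 log2 units (adjusted p = 0.00045), reading 10.09 and 9.96 at 24 h and 8.62 and 8.69 at 8 h. BGLU44, a beta-glucosidase, was above the end of the night at 8 h (0.74 ± 0.16, not called with 8 h array A omitted, adjusted p = 0.0753) after a called fall at 4 h (-0.78, adjusted p = 0.00953). Its level at 8 h exceeded that at 4 h by 1.52 (adjusted p = 0.00289), and the 24 h level differed from that at 8 h by -1.37 (adjusted p = 0.00436). AT1G70820 was above the end of the night at 8 h by 1.33 ± 0.19 and below it at 24 h (-1.46, adjusted p = 0.000317). It differed at 24 h from 8 h by -2.79 (adjusted p = 0.000397), with 5.53 and 5.75 at 24 h and 8.44 and 8.43 at 8 h.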

How the results depend on the processing

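In the comparison of 8 h with the end of the night, counts stayed within 1.5 times under the other scalings, fits and filters, between 6134 (dimmest probe sets left out) and 8326 (replicate block) calls, except with stricter thresholds. At an adjusted p under 0.01, 4166 were called, 1864 of them up; at least 2-fold, 2692, with 1208 up and 1484 down. With each array centred on its median, rises outnumbered falls (3423 against 2972). Leaving out one array gave 4512 to 5569 calls, 2009 to 2543 up and 2503 to 3036 down.

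For 8 h against 4 h, an adjusted p under 0.01 gave 263 calls (115 up, 148 down), at least 2-fold 416 (188 up, 228 down) and the replicate block 2459 (1049 up, 1410 down). Leaving out one array gave 185 to 397 calls, 94 to 175 up and 91 to 222 down. For 24 h against 8 h the same settings gave 227 (78 up, 149 down), 338 (120 up, 218 down) and 1523 (764 up, 759 down). The 4 arrays alone gave 273 (90 up, 183 down), and without both 48 h arrays 481 were up. Leaving out one array gave 157 to 261 calls, 48 to 97 up and 109 to 172 down. The causes were not tested.

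Of 239 called named probe sets, 204 kept the call under every alternative that could be run for them (11 or 12), 35 lost it under at least 1, and 0 reversed. With the replicate block 2 of the named calls were lost, PDF1.2b (adjusted p = 0.0501) and PDF1.2 (0.05), and 7 named probe sets were newly called, 3 of them next to the threshold. It changed no other named call. Of 1104 list counts, 1037 stayed within 1.5 times. With 2 arrays against 3 and lower call rates among dim probe sets, a missing call says little about dim genes.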
